A study of Homo sapiens with 12 samples.

Results

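The nuclear genes of the mitochondrial ribosome were examined in A549, an established human lung carcinoma cell line. They were taken by symbol: MRPL or MRPS, a number and at most 1 further letter, with pseudogenes left out. This rule found 76 genes among the 22564 of the deposited table, 47 with a large subunit symbol (MRPL) and 29 with a small subunit symbol (MRPS), each on a single row. The study compared A549 cells transfected with a siRNA against YTHDC1 (siYTHDC1), a nuclear reader of N6-methyladenosine in RNA, with cells transfected with a scrambled siRNA (siSCR). The siRNAs were given at 40 nM for 48 to 72 h, and total RNA freed of ribosomal RNA was sequenced from 6 libraries of siYTHDC1 cells and 6 libraries of siSCR cells. No other genotype or agent separates the groups, and both are a single cell line.

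The value used for each gene is the authors' mean normalised count over all 12 libraries. The table holds 1 such mean per gene and no value for a single library. Levels are therefore given without an SD, the depth of each library is unknown here, and no difference between siYTHDC1 and siSCR cells was tested. YTHDC1 itself had a mean normalised count of 232, which pools silenced and unsilenced cells and so does not check the knockdown. To compare genes, each mean was divided by the length of the gene's merged exons in kilobases (kb). This level per kb could be had for 74 members (46 large, 28 small). MRPL45 and MRPS21, with mean normalised counts of 294 and 209, had identifiers that were not in the annotation used here, and have no level per kb.

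The mitochondrial ribosome, or mitoribosome, translates the few messenger RNAs of the mitochondrial genome, which encode core subunits of the respiratory chain and of ATP synthase. Its small subunit reads the messenger RNA and its large subunit joins the amino acids. The ribosomal RNAs are made in the mitochondrion, but every protein of the particle is encoded in the nucleus, made in the cytosol and imported. Many of these proteins descend from the bacterial ribosome, and the others were added in mitochondria.

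Mitochondrial ribosomal protein genes were found at moderate RNA levels in A549 cells. The median of the 74 members was 139 mean normalised counts per kb, which lay at percentile 74.8 of the 14100 protein-coding genes with a length, whose median was 58.6. 61 of the 74 members were above that median (41 large, 20 small), and 10 stood in the top 10% of protein-coding genes. The size of this gap depended on the length. By canonical transcript, protein-coding genes had a median of 96.9 per kb and the members 256 per kb. Without division by length, protein-coding genes had a median of 313 mean normalised counts and the members 361. Their cytosolic counterparts stood far higher: the 77 cytosolic ribosomal protein genes had a median of 866 per kb. The 76 nuclear genes of the respiratory chain, which work with the products of the mitoribosome, had a median of 187 per kb. Mitochondrial ribosomal protein genes together took 0.302% of the summed mean normalised counts of the table, and cytosolic ribosomal protein genes took 2.37%. These are descriptions of 1 mean per gene, and genes are not replicates, so no test was made between gene groups.

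**Figure D1:**
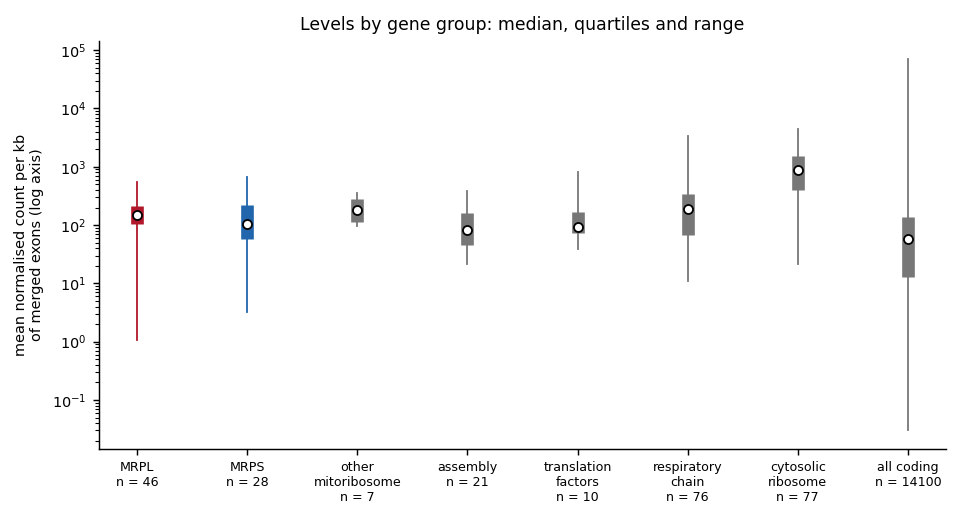
Level per gene group, in mean normalised counts per kb of merged exons on a log axis. The white circle is the median over genes, the thick bar runs between the quartiles and the thin line between the lowest and highest gene. The large and small subunit medians, 146 and 104 per kb, sit above the 58.6 of all protein-coding genes and below the 866 of cytosolic ribosomal proteins.

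The large subunit median was 146 per kb, with quartiles of 104 and 215, and the small subunit median was 104 per kb, with quartiles of 57.4 and 222. The ratio of the medians, large over small, was 1.40, but its direction depended on the length: without division by length the medians were 357 mean normalised counts for the large subunit and 423 for the small subunit, a ratio of 0.843. It was 1.01 when members with exons shared on the same strand were left out. The upper quartile was 2.07 times the lower in the large subunit and 3.88 times in the small subunit, where the spread was wider. Small subunit genes were found at both ends of the order, with 5 of the 8 highest and 5 of the 8 lowest members.

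**Figure D2:**
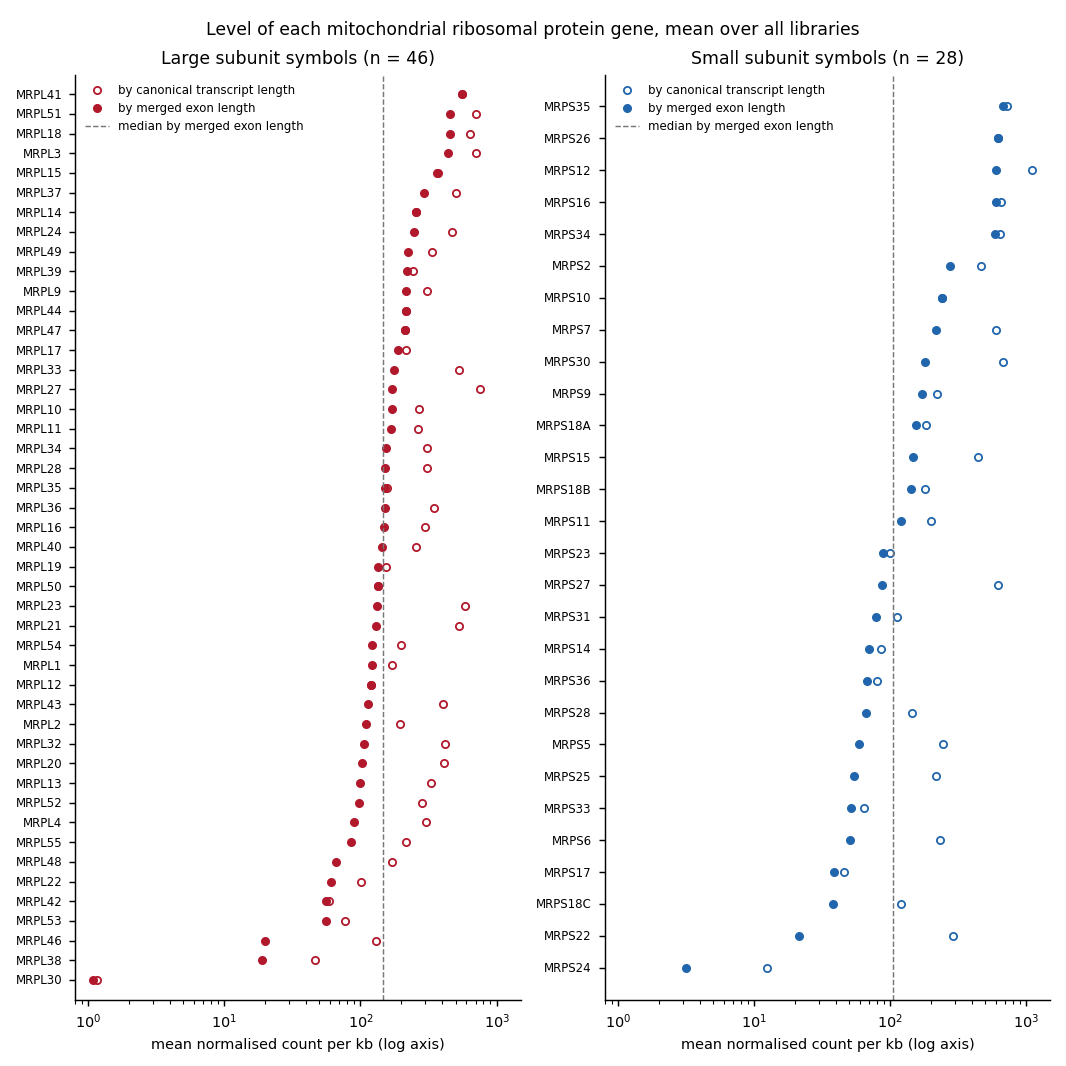
Level of each member with a length, in mean normalised counts per kb on a log axis, for 46 large subunit genes (left) and 28 small subunit genes (right). Filled circles divide by merged exons, open circles by the canonical transcript, and the dashed line is the subunit median by merged exons. MRPL30 at 1.09 and MRPS24 at 3.17 per kb stand far below the other members.

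The 8 highest members were MRPS35, MRPS26, MRPS12, MRPS16, MRPS34, MRPL41, MRPL51 and MRPL18. MRPS35 had 678 per kb, from a mean normalised count of 1309 over 1930 bases of merged exons. MRPS26 had 619 per kb and MRPS34 had 586 per kb, and like MRPS35 they are small subunit proteins with no bacterial counterpart. MRPS12, the counterpart of the bacterial decoding centre protein in which streptomycin resistance arises, had 601 per kb. MRPS16, also of bacterial descent, had 598 per kb. These 5 small subunit genes lay within 678 to 586 per kb, and the next small subunit gene, MRPS2, had 273 per kb. The top of the large subunit was MRPL41 at 558 per kb, a gene of 582 bases of merged exons. MRPL51 followed at 453 and MRPL18 at 452 per kb. MRPL3, the counterpart of a bacterial protein near the peptidyl transferase centre, came next in the large subunit with 440.5 per kb.

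At the other end, MRPL30 had 1.09 per kb, from a mean normalised count of 5.18, and MRPS24 had 3.17 per kb, from a mean of 8.27. MRPS24 is the counterpart of a bacterial small subunit protein at the entry of the messenger RNA channel. After these, the order rose through MRPL38 at 18.8, MRPL46 at 19.96, MRPS22 at 21.4, MRPS18C at 38.1, MRPS17 at 38.9 and MRPS6 at 50.9 per kb. MRPL38 and MRPL46 are mitochondria-specific proteins of the large subunit, and MRPS22 is a mitochondria-specific protein of the small subunit whose mutations cause mitochondrial disease. The range over all 74 members was 623-fold.

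MRPL16 at 148 and MRPL40 at 144 per kb stood on either side of the large subunit median. MRPS11 at 120 and MRPS23 at 88.1 per kb stood on either side of the small subunit median. MRPL12, the stalk protein that is present in several copies per ribosome, had 119 per kb, below the large subunit median, and MRPL10, which anchors the stalk, had 171 per kb.

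Some symbols do not match the subunit in which the protein is found. MRPS18A and MRPS30 sit in the large subunit in structures of the mammalian mitoribosome. MRPS30 had 180 per kb and MRPS18A had 154 per kb, both above the large subunit median. Of the other MRPS18 paralogues, MRPS18B had 143 and MRPS18C had 38.1 per kb. MRPS36, which is also described as a subunit of the 2-oxoglutarate dehydrogenase complex, had 67.8 per kb. With MRPS18A and MRPS30 counted in the large subunit, the medians were 149 per kb in the large and 87.9 per kb in the small subunit.

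By descent, the 43 members with a bacterial homologue had a median of 151 per kb and the 26 mitochondria-specific members 118 per kb. In the large subunit these medians were 152 (29 genes with a bacterial homologue) and 128 (16 mitochondria-specific genes), and in the small subunit 134 (14 genes) and 87.9 (10 genes). In the small subunit this order turned with the length: by canonical transcript the medians were 236 per kb for genes with a bacterial homologue and 253 per kb for mitochondria-specific genes, and without a length they were 423 and 595 mean normalised counts. In the large subunit it kept its direction, with 306 and 230 per kb by canonical transcript and 368 and 315 mean normalised counts without a length. Among mitochondria-specific genes of the small subunit, levels by merged exons ran between MRPS35 at 678 and MRPS22 at 21.4 per kb. These classes come from a list drawn up by hand, and the members outside it (MRPS30, MRPS18A, MRPS28, MRPS36 and MRPL55) were left out of them.

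Several members have long annotated exons outside the annotated canonical transcript, and their place in the order moved with the length chosen. Which transcripts A549 cells use was not measured. The median member had 2600.5 bases of merged exons and 1242 in its canonical transcript. Over all protein-coding genes these medians were 5323 and 3336 bases. For 43 members the level by canonical transcript was more than 1.5 times that by merged exons, and for 19 it was more than 3 times. MRPS22 had 16385 bases of merged exons and 1205 bases in its canonical transcript, so its level was 21.4 per kb by the first and 290 per kb by the second. MRPS27, a protein of the pentatricopeptide repeat family and the member with the highest mean normalised count (1712), had 87.7 per kb by merged exons and 618 per kb by canonical transcript. MRPL46 had 19.96 and 130 per kb in that order. Of the 8 highest members by merged exons, 5 were also among the 8 highest by canonical transcript (MRPL51, MRPS12, MRPS16, MRPS34 and MRPS35), and of the 8 lowest, 4 were (MRPL30, MRPL38, MRPS17 and MRPS24).

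5 members had a mean normalised count under 100: MRPL30 (5.18), MRPS24 (8.27), MRPL53 (38.0), MRPL38 (62.9) and MRPS17 (81.6). All 5 share exon sequence with another gene on the same strand. MRPL53 shares 72.8% of its merged exons with CCDC142, which had a mean of 259. MRPS17 shares exons with genes including NIPSNAP2, which had a mean of 817. MRPS24 shares 23.2% with the readthrough gene URGCP-MRPS24, which had no row in the table. MRPL38 shares 41.1% with a gene named by identifier only, which had a mean of 2.15. MRPL30 shares 11.8% with genes named by identifier only, and the only such gene with a mean here had 9.35. Reads from shared exons cannot be given to 1 gene without a rule, and the rule used in the counting is not given in the sources used here.

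Across the 74 members, 18 (24.3%) had exons overlapped on the same strand, against 18.3% of protein-coding genes. The median was 57.1 per kb for these 18 and 153 per kb for the 56 others. By canonical transcript the medians were 149 and 294 per kb in the same order. 6 of the 8 lowest members by merged exons were among the 18, and 0 of the 8 highest. Overlap did not go with a low level in each gene: MRPL33, with 21.1% of its exons covered, had 176 per kb. MRPL12, with 69.5% of its exons covered by a readthrough gene, had 119 per kb by both lengths. That is below the medians of all members, 139 per kb by merged exons and 256 per kb by canonical transcript. The part of shared exons in these levels was not tested. Overlaps come from a newer annotation release than the one used in counting. The only genes overlapping MRPL12, MRPS28, MRPL2, MRPS5, MRPS24, MRPS25, MRPL20 and MRPS6 on their strand had no mean normalised count here. Whether such genes were annotated when reads were counted was not checked. 30 members (40.5%) had exons overlapped on the opposite strand, against 42.3% of protein-coding genes. The libraries were made with a stranded kit, but whether strand was used in counting is not stated.

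**Figure D3:**
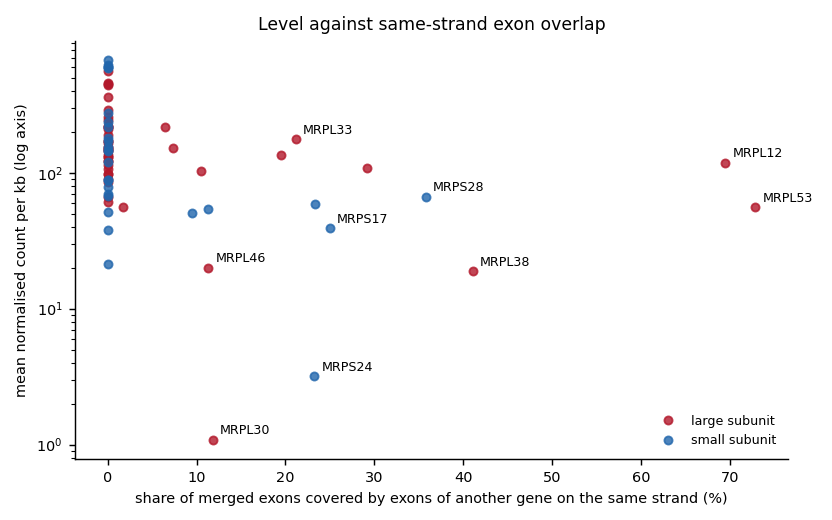
Level of the 74 members in mean normalised counts per kb (log axis) against the share of their merged exons, in percent, that exons of another gene cover on the same strand. Red circles are large and blue circles small subunit genes. MRPL30, MRPS24 and MRPL38 are low and overlapped, while MRPL33 at 21.1% has 176 per kb. MRPL12 at 69.5% has 119 per kb, below the median of 139 per kb of the 74 members.

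Copies of these genes also share sequence with them. The annotation holds 76 processed or other pseudogenes named after 35 members, of which 7 had a row in the table. MRPL45 had a mean normalised count of 294 beside 158 for MRPL45P2, the highest of these copies. The other 6 lay between 32.8 (MRPL37P1) and 1.70 (MRPL35P3). Reads that fit both a gene and its copy could have been counted for either or dropped, so the values of MRPL45 and its copy are uncertain.

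Many members lie head to head with a neighbour. 16 of the 74 (21.6%) had a gene on the opposite strand starting within 1000 bp upstream, against 10.6% of protein-coding genes, and 13 of the 16 were large subunit genes. MRPL49 starts 6 bp from FAU, which encodes a fusion of a ubiquitin-like protein with a cytosolic ribosomal protein. Their means were 682 for MRPL49 and 585 for FAU, but per kb of merged exons they had 222 and 378. MRPL36 and MRPL47 each start 41 bp from a gene of respiratory complex I. MRPL36 had a mean of 210 beside 186 for NDUFS6, and MRPL47 had 288 beside 361 for NDUFB5. Per kb the order turned in both pairs, with 151 for MRPL36 beside 210 for NDUFS6 and 211 for MRPL47 beside 61.4 for NDUFB5.

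In 1 pair both genes encode the mitoribosome: MRPL46 and MRPS11 start 63 bp apart and had means of 128 and 676. Per kb they had 19.96 and 120 by merged exons. Neighbours were unequal elsewhere too. MRPL30 had a mean of 5.18 beside 188 for MITD1 (1.09 and 43.6 per kb). MRPS12 had a mean of 1054 beside 97.4 for SARS2, the mitochondrial seryl-tRNA synthetase (601 and 31.4 per kb). MRPL18 had a mean of 622 beside 3127 for TCP1, a subunit of the cytosolic chaperonin. Per kb MRPL18 and TCP1 were closer, at 452 and 640. Members with a head-to-head neighbour had a median of 132 per kb, and members without had 144 per kb.

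The promoters of the members were read from RefSeq (GRCh38.p14), in windows of 250 bases before to 50 bases after each annotated start. 68 members had 84 windows, MRPS36 under its current symbol KGD4. MRPL10, MRPL13, MRPL15, MRPL2, MRPL21, MRPL23, MRPL35 and MRPS28 had no entry. Motifs of factors known to drive nuclear genes of mitochondria were searched on both strands: CCGGAAG for the ETS family, which includes the GABPA subunit of nuclear respiratory factor 2, AAGATGGC for YY1 and GCATGCGC for NRF1, with TATAAA and CCAAT for comparison. Matches are runs of letters and do not show binding.

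ETS and YY1 matches were frequent in these promoters. The ETS letters were found in 29 of 68 members (42.6%), against 16.5% of 15843 protein-coding genes. These 15843 are more than the 14100 with a level per kb, so this background is not limited to genes with a level in A549 cells. The YY1 letters were found in 21 of 68 (30.9%), against 4.66% of protein-coding genes. Counted by window, YY1 matched 27.4% of the 84 member windows against 3.53% of the windows of protein-coding genes. ETS matched 38.1% against 12.8%. Over all windows of the same length, of any gene type, the shares were 2.89% for YY1 and 10.3% for ETS. Both motifs were found in 8 members (11.8%), against 1.17% of protein-coding genes, and 26 members had neither. These 26 include MRPL41 and MRPS35, from the 8 highest members, MRPS17 and MRPS6, from the 8 lowest, as well as MRPL12 and MRPS11. The rest of the 8 highest (MRPS26, MRPS12, MRPS16, MRPS34, MRPL51 and MRPL18) each had ETS letters. The rest of the 8 lowest each had ETS letters, YY1 letters or both. NRF1 letters were found in 6 members (8.82%), against 4.89% of protein-coding genes, TATAAA in 5.88% against 12.4%, and CCAAT in 33.8% against 42.1%.

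ETS letters, found in 42.6% of mitochondrial ribosomal protein genes, were found in 35.5% of the 62 cytosolic ribosomal protein genes with a window and in 32.3% of the 62 respiratory chain genes. With the longer ETS letters CCGGAAGT the shares were 17.6% in mitochondrial ribosomal protein genes, 14.5% in cytosolic ribosomal protein genes and 17.7% in respiratory chain genes, against 6.97% of protein-coding genes. The YY1 share of 30.9% in mitochondrial ribosomal protein genes stood above the 11.3% of cytosolic ribosomal protein genes and the 19.4% of respiratory chain genes. The NRF1 share stood the other way, with 8.82% of mitochondrial ribosomal protein genes against 22.6% of respiratory chain genes. By subunit, CCGGAAG matched 17 of 40 large and 12 of 28 small subunit genes, the longer CCGGAAGT matched 10 of 40 and 2 of 28, and YY1 matched 13 of 40 and 8 of 28. Genes that share a window with a neighbour, as in head-to-head pairs, are not independent of it, and the shares were not tested.

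**Figure D4:**
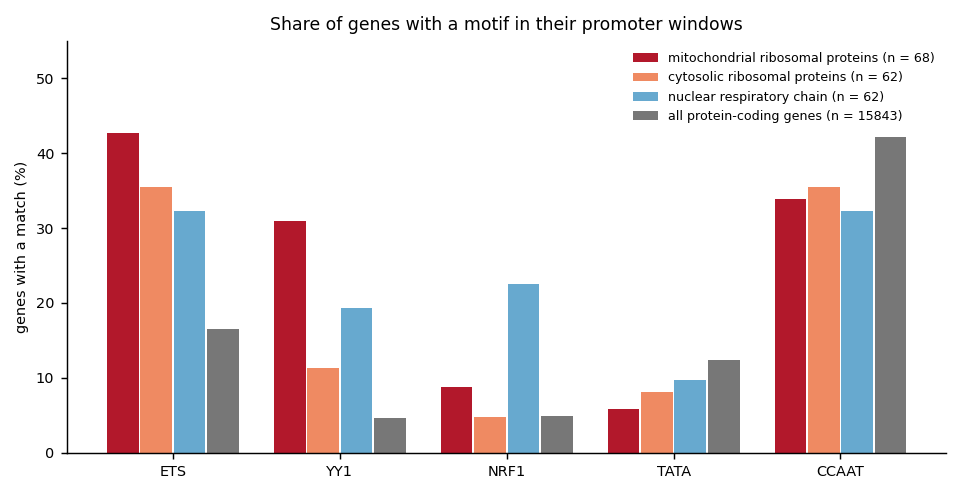
Share of genes, in percent, with at least 1 match to each motif in their promoter windows, for mitochondrial ribosomal protein genes and 3 comparison groups (n = genes with a window). Bars start at 0. YY1 matched 30.9% of mitochondrial ribosomal protein genes and 4.66% of protein-coding genes.

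Most YY1 matches lay shortly after the start, in windows that end 50 bases after it. Positions are counted from the annotated start, with +1 as the first transcribed base, and matches are counted per window. Where a gene has overlapping windows a site is counted in each, so the 24 YY1 matches are 22 distinct sites and the 43 ETS matches are 38. The sites counted more than once are in MRPL47, MRPS12 and, for ETS, MRPS22. 16 of the 24 YY1 matches lay after the start, in 16 different genes (9 large, 7 small), all 16 on the gene's own strand and with their first base between +7 and +36. Thus 23.5% of members had a forward match after the start, against 2.50% of protein-coding genes, and 0 of 68 had a reverse match there, against 0.385%. The YY1 matches before the start were spread, with their first base between -222 and -35. ETS matches lay mostly before the start: 25 of 43 had their first base within 60 bases before it, and the median position was -26. The 6 ETS matches after the start were all on the opposite strand.

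**Figure D5:**
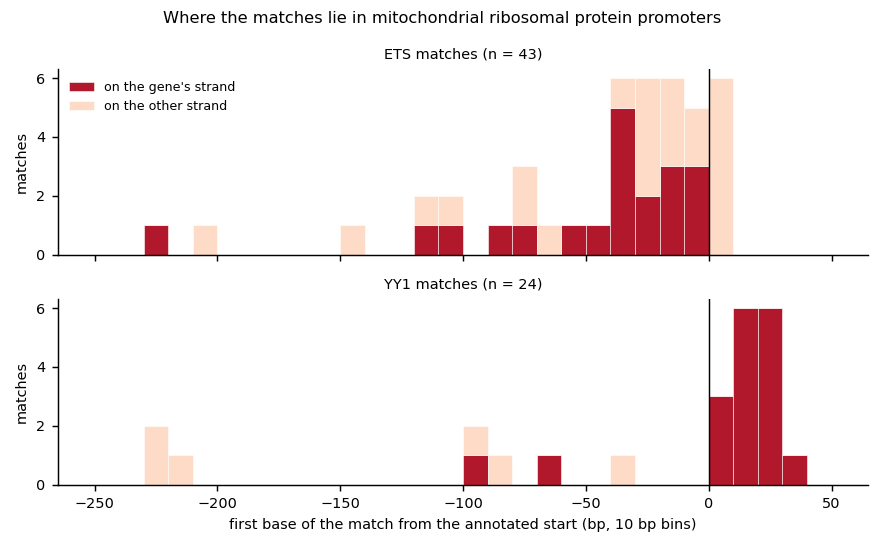
Number of ETS (top) and YY1 (bottom) matches in the promoter windows of members by distance of the first base from the annotated start, in bins of 10 bp. Dark bars are matches on the gene's strand and light bars on the other strand. All 16 YY1 matches to the right of the start are on the gene's strand, while 25 of 43 ETS matches lie within 60 bp to its left.

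The following stretches, 100 bases before to 50 after the start, are examples. MRPL20, MRPS10 and MRPS18A are from the 8 members with both motifs and carry ETS before YY1. MRPL46 and MRPS24 carry the YY1 letters alone. The layout was not shared by all 8: MRPL38 and MRPL51 have ETS letters further upstream, at -208 and at -119 and -104. In MRPL47, MRPL52 and MRPS12 the YY1 letters come before the ETS letters. Capitals mark CCGGAAG and AAGATGGC.
MRPL20, chr1:1407244-1407393, minus strand: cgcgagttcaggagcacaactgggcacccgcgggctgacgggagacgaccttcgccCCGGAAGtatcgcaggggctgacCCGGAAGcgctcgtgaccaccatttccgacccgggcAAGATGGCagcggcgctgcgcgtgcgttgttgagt
MRPS10, chr6:42217812-42217961, minus strand: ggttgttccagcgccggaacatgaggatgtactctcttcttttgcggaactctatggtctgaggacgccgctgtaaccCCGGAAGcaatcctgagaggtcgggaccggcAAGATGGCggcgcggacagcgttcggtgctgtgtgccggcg
MRPS18A, chr6:43687742-43687891, minus strand: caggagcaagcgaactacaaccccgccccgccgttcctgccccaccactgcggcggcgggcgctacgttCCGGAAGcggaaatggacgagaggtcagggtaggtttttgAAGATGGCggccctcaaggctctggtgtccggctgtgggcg
MRPL46, chr15:88467339-88467488, minus strand: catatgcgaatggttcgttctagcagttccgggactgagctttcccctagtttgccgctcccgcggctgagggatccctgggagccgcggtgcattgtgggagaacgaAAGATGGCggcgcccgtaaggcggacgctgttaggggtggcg
MRPS24, chr7:43869468-43869617, minus strand: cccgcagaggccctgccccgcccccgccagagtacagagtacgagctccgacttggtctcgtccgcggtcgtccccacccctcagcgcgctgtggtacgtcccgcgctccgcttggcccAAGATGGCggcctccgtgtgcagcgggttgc
The YY1 letters begin at +16 in MRPL20, at +10 in MRPS10 and MRPS18A, at +9 in MRPL46 and at +20 in MRPS24. The ETS letters begin at -44 and -21 in MRPL20, at -22 in MRPS10 and at -31 in MRPS18A.

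The YY1 letters contain ATG, the start codon of translation. In 13 of the 16 members with a forward match after the start, this ATG was the annotated start codon of a transcript of the gene, among them MRPS10, MRPS18A, MRPL46 and MRPS24, and in MRPL20, MRPL42 and MRPL51 it was not. The comparison took the first 10 coding bases. Among protein-coding genes with such a match and an annotated start codon, the ATG was the start codon in 267 of 385 (69.4%). Start codons near the transcript start were frequent in members as a whole: 38 of 68 (55.9%) had theirs within the 50 bases after the start, against 16.4% of protein-coding genes. The letters around a start codon and the letters of this motif therefore cannot be told apart in most of these genes.

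By motif, the median was 146 per kb for members with ETS letters and 139 per kb for those without. For YY1 the medians were 139 per kb with and 146 per kb without, for NRF1 they were 102 per kb with (6 genes) and 148 per kb without, and for CCAAT they were 151 per kb with and 129 per kb without. Members with YY1 letters after the start ran over most of the range, including MRPS24 at 3.17 and MRPL51 at 453 per kb.

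Proteins of the mitoribosome that carry other symbols stood in the same range as the members. Their median was 179 per kb over 7 genes. The lowest was GADD45GIP1, a large subunit protein, at 98.1 per kb, and the highest was ICT1, a peptidyl-tRNA hydrolase built into the large subunit, at 360 per kb. DAP3, a GTP-binding protein of the small subunit, had 244 per kb and PTCD3, at its messenger RNA entry, had 179 per kb.

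Factors that build, serve or regulate the mitoribosome had lower medians per kb than the members, but this order depended on the length. Without division by length, the medians were 362 mean normalised counts for assembly factors, 504 for translation factors and 476 for regulators. The members had 361. By canonical transcript the medians were 121, 130 and 103 per kb in the same order, against 256 per kb for the members. Assembly factors had a median of 83.3 per kb over 21 genes, from RBFA, which binds the small subunit ribosomal RNA, at 21.1 to ERAL1, a chaperone of that RNA, at 386 per kb. Translation factors of mitochondria had a median of 92.7 per kb over 10 genes, from the release factor family member MTRF1 at 39.0 to the elongation factor TUFM at 825 per kb. TUFM was above each of the 74 members by merged exons. The regulators had a median of 85.6 per kb over 8 genes, from PPARGC1A at 10.8 to PPRC1, its relative, at 378 per kb. YY1 had 171, NRF1 85.4 and GABPA 64.7 per kb.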

How the data were processed

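RNA of A549 cells was sequenced as 6 libraries of siYTHDC1 and 6 libraries of siSCR cells. In the authors' processing, STAR placed the reads on hg19, HTSeq assigned them to Gencode genes, and DESeq2 was fitted with a term for sequencing batch, which the labels do not give per sample. The deposited table holds, per gene, a signal that was used here: the mean of the normalised counts over all 12 libraries, as the authors made it. Its 5 other value columns hold the authors' own comparison of siYTHDC1 with siSCR cells (log2 fold change, its standard error, statistic, p-value and adjusted p-value) and were not used. Depth per library is unknown.

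Means were divided by merged exon length in kb, from GENCODE release 44 on GRCh37, which matched 96.6% of gene identifiers. The authors counted on an older release, so lengths and overlaps can differ from those counted. Overlaps and neighbouring starts also came from release 44. Promoters came from RefSeq (GRCh38.p14). Groups were described by medians and quartiles, with no test. Scripts ran in Python 3.11.15 with pandas 2.3.3 and numpy 2.4.6 and were tested on simulated data. Named genes were the 8 highest and 8 lowest per kb, those nearest each subunit median, the MRPS18 paralogues, MRPS30, MRPS36, members with a mean under 100, and the highest and lowest of each list; others named were chosen after their values were seen. The members and lists were chosen with earlier results of these data known. Alternatives were other lengths, a mean of at least 100, other subunit assignments and summed rows.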

Additional observations from a re-analysis of the deposited data

How the results depend on the processing

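The ratio of the large to the small subunit median was 1.40 (146 and 104 per kb), and it kept this direction under every setting that divided by length. The longest transcript as length gave 1.21 (205 and 170 per kb). A mean of at least 100 gave 1.14 (151 and 132), MRPS18A and MRPS30 counted with the large subunit gave 1.70 (149 and 87.9), and leaving out MRPS36 gave 1.22 (146 and 120). Without a length it turned to 0.843 (357 and 423 mean normalised counts), where the construction itself differs. Summed rows changed nothing, since each symbol has 1 row. Of 2 alternatives chosen after seeing the data, the canonical transcript gave 1.22 (277 and 227 per kb), and leaving out members overlapped on their strand gave 1.01 (153 and 151). The cause of these shifts was not tested. No paired analysis was possible because the deposited table holds 1 mean per gene and no values per library. For the same reason the planned fits of counts, replicate block, low-count filter, thresholds and centring were not run, and no library could be left out.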
